A study of Homo sapiens with 6 samples.

Results

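The E2F transcription factors and the RB pocket proteins were examined in HUDEP-2 cells after knockdown of MEN1. The 10 genes E2F1, E2F2, E2F3, E2F4, E2F5, E2F7, E2F8, RB1, RBL1 and RBL2 were taken by gene name, 10 rows of the 62754 in each deposited table. HUDEP-2 is an immortalised human erythroid progenitor line kept in serum-free medium with erythropoietin (3 units per ml), stem cell factor (50 ng per ml), dexamethasone (1e-06 M) and doxycycline (1 µg per ml). In both groups the cells carried a lentiviral shRNA, were selected with puromycin (2 µg per ml) for 48 h from 24 h after infection, and were profiled at 72 h. The MEN1 group (n = 3) received the hairpin named MEN1sh2 in the titles, which targets the transcript of menin, a subunit of the MLL1 histone methyltransferase complex. The control group (n = 3), whose genotype is labelled WT, received a non-targeting hairpin. The series concerns the part of that complex in fetal hemoglobin repression. A single MEN1 hairpin in a single line was profiled, so hairpin and target cannot be told apart. The labels call the libraries biological replicates without naming separate cultures, so p-values measure the spread between these libraries.

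As background, E2F factors bind DNA with a DP partner and control genes needed to enter and complete S phase. E2F1, E2F2 and E2F3 are activators held in check by RB, E2F4 and E2F5 act mainly as repressors with the pocket proteins RBL1 (p107) and RBL2 (p130), and the atypical E2F7 and E2F8 repress without a DP partner. Cyclin-dependent kinases phosphorylate the pocket proteins and release the E2Fs, and erythroid maturation ends with exit from the cell cycle. HUDEP lines were immortalised with human papillomavirus E6 and E7 under doxycycline control, and E7 binds RB family proteins, which limits the line as a model of this pathway in both groups.

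The total of aligned bases inferred from the tables was 5564769081 to 10810847070 per library. MEN1 itself was at 6.29, 6.44 and 6.88 TPM (a transcript level per length, scaled to a total of 1000000 in each library) under its shRNA, against 41.2, 39.6 and 37.1 TPM in controls, or 16.6% of the control mean (log2 fold change -2.42, limma adjusted p 8.54e-06). Correlations of log2(TPM + 1) across genes, which are not replicates, were 0.985 to 0.989 within groups and 0.934 to 0.954 between groups. All 10 erythroid markers were expressed, and 7 of the 10 rose with the MEN1 shRNA (70.0%, against 22.1% of all tested genes). Their summed level was 75747 to 83541 TPM against 45198 to 49333 TPM, and this sum includes the globin genes HBB and HBA1. After globin and mitochondrial genes were dropped and TPM was scaled again, 5 of the 8 markers left rose. The median log2 fold change was then 0.58, against 0.74 for all 10. The erythrocyte membrane protein SLC4A1 rose by 1.93 on the log2 scale, while GATA1 and KLF1, erythroid transcription factors, did not pass. Of 12 markers of other cell types, 8 were under 1 TPM in every library, and MS4A1 (B cells) and PF4 (megakaryocytes) were at 0. Their sum was 142 to 157 TPM with the MEN1 shRNA and 269.5 to 281 TPM in the controls, most of it EPCAM, an epithelial marker (132 ± 9.51 against 239 ± 7.46 TPM, SD, n = 3). The part of these shifts in the results below was not tested, and fewer cells of a state and less RNA per cell cannot be told apart in bulk RNA.

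Many E2F genes are themselves controlled by E2F sites near their start, so the promoters of members were searched first. The RefSeq promoter table (GRCh38.p14) held a window for 8 of the 10 members. For 6 of them (E2F1, E2F2, E2F3, E2F4, E2F7 and RBL1) a window began at the start site of the deposited tables, whereas the RB1 and RBL2 windows lay at other starts and were not used. The E2F motif was searched as 4 strings (TTTCCCGC, TTTGGCGC, TTTCGCGC and TTTGCCGC) on both strands of the 250 bases before the start. It was found in 4 of the 6 windows, E2F1, E2F2, E2F3 and RBL1, against 2.788% of all 35116 windows in the table. The box CCAAT, bound by NF-Y, is common in cell cycle promoters and occurs in 32.008% of all windows. It was found in 3 of the 6, with 3 matches for E2F1, 4 for E2F3 and 4 for E2F7. The element TTTGAA, bound by MuvB in G2/M promoters, was found in 1 of the 6 windows, E2F3, against 13.319% of all windows. E2F3 also has a window at a RefSeq start 1735 bases downstream, which was not counted. That window held 0 matches of the E2F motif, 0 of CCAAT and 0 of TTTGAA. The stretches just before the start are shown 5′ to 3′ for 3 genes that rose (E2F1, E2F2 and E2F7), 1 that fell (E2F3) and 1 that did not pass the test (RBL1). Whether a match goes with the direction of a gene was not tested. Only the 4 exact strings count as an E2F match, so a window without a match is not shown to lack E2F sites. Capitals mark E2F motif and CCAAT matches on either strand. The E2F7 stretch has 250 bases and the others have 160. CCAAT matches further out, at -179 to -175 in E2F1 and at -249 to -245 and -187 to -183 in E2F3, are therefore not shown.
E2F1 promoter (chr20:33686386-33686545, minus strand): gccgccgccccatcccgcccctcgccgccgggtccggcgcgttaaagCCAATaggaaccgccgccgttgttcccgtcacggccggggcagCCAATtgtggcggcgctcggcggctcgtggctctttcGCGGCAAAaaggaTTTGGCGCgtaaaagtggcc
E2F2 promoter (chr1:23531234-23531393, minus strand): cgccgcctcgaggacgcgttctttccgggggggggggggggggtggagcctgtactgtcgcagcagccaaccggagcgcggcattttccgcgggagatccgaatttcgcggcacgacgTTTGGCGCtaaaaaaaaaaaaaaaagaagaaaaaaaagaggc
E2F7 promoter (chr12:77065570-77065819, minus strand): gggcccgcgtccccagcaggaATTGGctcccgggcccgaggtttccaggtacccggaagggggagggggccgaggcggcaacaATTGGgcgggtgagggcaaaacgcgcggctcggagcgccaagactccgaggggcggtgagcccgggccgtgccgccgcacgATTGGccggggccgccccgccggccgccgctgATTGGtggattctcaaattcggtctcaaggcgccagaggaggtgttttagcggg
E2F3 promoter (chr6:20401719-20401878, plus strand): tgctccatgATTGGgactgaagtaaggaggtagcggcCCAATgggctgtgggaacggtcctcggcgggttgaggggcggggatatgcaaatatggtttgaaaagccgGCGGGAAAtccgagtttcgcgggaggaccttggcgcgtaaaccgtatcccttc
RBL1 promoter (chr20:37095998-37096157, minus strand): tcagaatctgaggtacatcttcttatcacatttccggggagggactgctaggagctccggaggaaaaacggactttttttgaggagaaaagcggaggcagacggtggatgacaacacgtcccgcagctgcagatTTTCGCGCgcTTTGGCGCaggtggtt

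E2F1 has a match on each strand, at positions -33 to -26 and -20 to -13 from the start. In E2F2 a single match lies at -42 to -35. RBL1 has a pair on the gene strand at -26 to -19 and -16 to -9, and the E2F3 match lies on the opposite strand at -53 to -46. E2F7 holds CCAAT on the opposite strand only, 4 times, and E2F4 held neither motif. These matches are letters in a reference sequence and no binding was measured here.

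**Figure D1:**
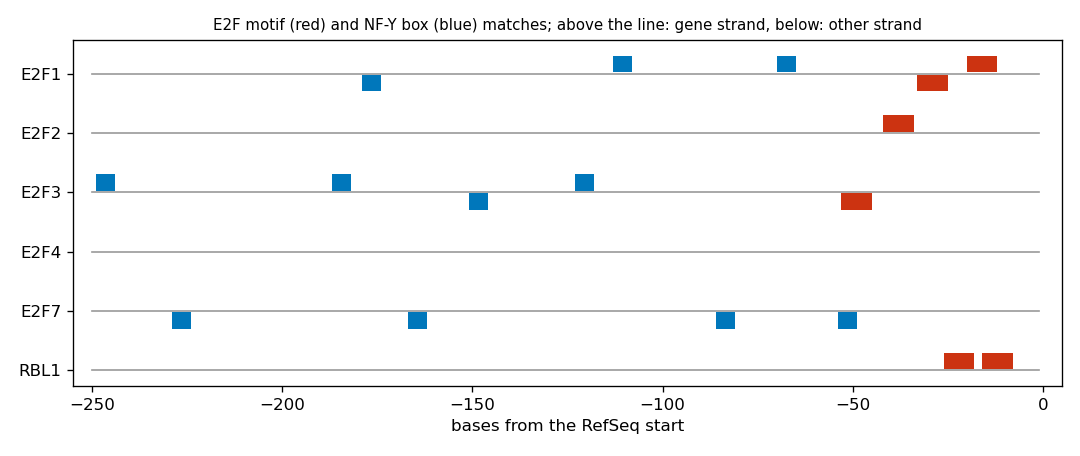
Matches of the E2F motif (red) and of the NF-Y box (blue) in the 250 bases before the RefSeq start of 6 members, with distance from the start in bases on the x axis. Boxes above a line are on the gene strand and boxes below it on the other strand. The E2F matches of E2F1, E2F2, E2F3 and RBL1 all lie within 53 bases of the start.

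Knockdown of MEN1 was accompanied by divergent changes within the family. E2F7, E2F2, E2F1 and E2F8 rose, at 3.05, 2.56, 1.85 and 1.39 times the control mean. E2F5, E2F3 and RBL2 fell, to 0.246, 0.732 and 0.855 times the control mean. E2F4, RB1 and RBL1 did not pass the threshold. The test was limma on log2(TPM + 1) over 14294 genes, called at a Benjamini-Hochberg adjusted p under 0.05, so a fold change is understated for low genes. All 10 members passed the filter on low values. The count of 4 higher and 3 lower members stands against a background of 22.1% of all tested genes higher and 31.5% lower, 53.6% in either direction. Most tested genes were called, so the share among 10 members is not read as particular to the family. The groups did not overlap in 9 of the 10 members, against 61.8% of tested genes.

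**Figure D2:**
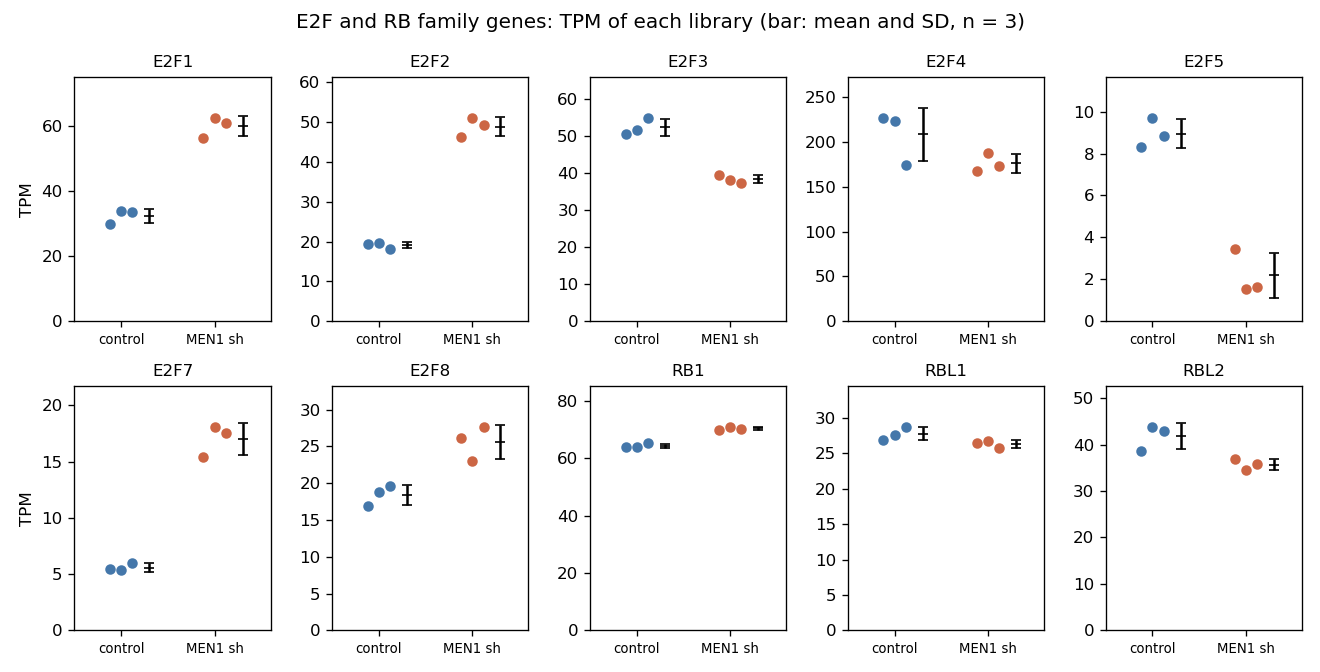
TPM of each member in the 3 control (blue) and 3 MEN1 shRNA (orange) libraries, with the mean and SD beside the points and axes that start at 0. The groups are apart in every panel but that of E2F4, where control replicate 3 at 174 TPM falls among the MEN1 shRNA libraries.

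The activators came first. E2F1 (ENSG00000101412, chromosome 20, 33675477 to 33686385, minus strand), which drives S-phase genes and can also trigger apoptosis, was at 56.4, 62.5 and 60.9 TPM in MEN1 shRNA replicates 1, 2 and 3, compared with 29.7, 33.8 and 33.5 TPM in control replicates 1, 2 and 3. Every MEN1 shRNA library was above every control, with means of 59.9 ± 3.14 and 32.4 ± 2.27 TPM (SD, n = 3 each). The log2 fold change was 0.87 (SE 0.0764, limma adjusted p 9.48e-05). E2F2 (ENSG00000007968, chromosome 1, 23506438 to 23531233, minus strand), an activator prominent in erythroblasts, was at 46.3, 51.0 and 49.2 TPM against 19.5, 19.6 and 18.2 TPM. The lowest MEN1 shRNA library was thus well above the highest control, and the log2 fold change was 1.31 (SE 0.0702, limma adjusted p 2.39e-05).

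E2F3 (ENSG00000112242, chromosome 6, 20401879 to 20493714, plus strand) moved against the other activators. It was at 39.5, 38.1 and 37.3 TPM after knockdown, compared with 50.5, 51.6 and 54.8 TPM in controls, with no overlap (log2 fold change -0.44, SE 0.063, limma adjusted p 0.000809). E2F3 therefore held 26.1% ± 1.49 of the summed TPM of the 3 activators with the MEN1 shRNA and 50.4% ± 1.16 in the controls. The summed TPM of E2F1, E2F2 and E2F3 was 147 ± 4.70 against 104 ± 3.59 (2-sided exact permutation p 0.1, the smallest that 3 against 3 libraries can give).

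The level of E2F3 depended on the measure. In genes with 1 annotated transcript, deposited coverage (mean reads per base) was a fixed multiple of FPKM for at least 94.9% of genes, within 0.1%, and coverage was rescaled by that multiple to TPM units. Rescaled coverage equalled TPM for E2F1, was 89.1% to 93.7% of it for E2F2, and was only 5.76% to 5.94% of it for E2F3. On this scale E2F3 stood at 2.25 ± 0.062 with the MEN1 shRNA and 3.06 ± 0.092 in the controls, and the activator sum rested on E2F1 and E2F2, at 107 ± 5.48 against 53.0 ± 1.76. The fall of E2F3 was seen on both scales (log2 fold change -0.32, limma adjusted p 0.00887 on coverage, where the pseudocount of 1 compresses it). Which transcripts carry the E2F3 reads is not in the gene tables and was not tested.

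The E2Fs that act mainly as repressors with pocket proteins differed from each other. E2F4 (ENSG00000205250, chromosome 16, 67192155 to 67198918, plus strand), the most abundant member, was at 168, 188 and 173 TPM against 227, 224 and 174 TPM. Control replicate 3 overlapped the MEN1 shRNA libraries while the other two controls lay above them. The log2 fold change was -0.23 (95% interval -0.48 to 0.02, limma adjusted p 0.104). Without control replicate 3 it was -0.35 and passed (limma adjusted p 0.00684), and over all alternatives the adjusted p ran from 0.00684 to 0.306.

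E2F5 (ENSG00000133740, chromosome 8, 85177154 to 85217158, plus strand), a partner of RBL2 in quiescent cells, was the member with the largest fall. It was at 3.43, 1.52 and 1.64 TPM after knockdown, compared with 8.31, 9.70 and 8.84 TPM in controls. All libraries were low and the groups lay apart, with MEN1 shRNA replicate 1 the nearest to the controls (log2 fold change -1.68, SE 0.219, limma adjusted p 0.000506). Without that replicate the log2 fold change was -1.94. Depth was thin, at 0.391 to 4.51 reads per base, and rescaled coverage was only 9.23% to 9.99% of TPM. On that scale the means were 0.208 and 0.870, and the log2 fold change of -0.63 is compressed by the pseudocount of 1 (limma adjusted p 0.000632). Summed E2F4 and E2F5 came to 178 ± 9.50 against 217 ± 29.5 TPM, with overlapping groups (exact permutation p 0.2). The 3′ end of E2F5 overlaps RBIS on the opposite strand, with 969 exonic bases in common in GENCODE v29. RBIS, a ribosome biogenesis factor, was itself lower (134 to 141 TPM against 174 to 198 TPM, log2 fold change -0.42, limma adjusted p 0.00112). Whether the counting used strand is not given in the sources used here, so reads of the shared part cannot be told apart.

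The atypical repressors both rose. E2F7 (ENSG00000165891, chromosome 12, 77021248 to 77065569, minus strand) was at 15.4, 18.1 and 17.5 TPM against 5.41, 5.32 and 6.00 TPM in the controls. This was the largest rise of the family, with a wide gap between the groups (log2 fold change 1.45, SE 0.0995, limma adjusted p 4.1e-05). E2F8 (ENSG00000129173, chromosome 11, 19224063 to 19241620, minus strand), which acts with E2F7, was at 26.2, 23.1 and 27.7 TPM against 16.9, 18.7 and 19.6 TPM. Its groups did not overlap either, but were closer (log2 fold change 0.45, SE 0.0952, limma adjusted p 0.00499). E2F7 made up 39.9% ± 3.58 of the summed E2F7 and E2F8 TPM with the MEN1 shRNA and 23.3% ± 1.07 in the controls. The sum was 42.6 ± 2.2 against 24.0 ± 1.64 TPM (exact permutation p 0.1). The ratio of summed E2F1 and E2F2 to summed E2F7 and E2F8 was 2.44 to 2.76 with the MEN1 shRNA and 2.02 to 2.22 in the controls, so that both sides were higher and their balance moved by a factor of 1.19.

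The pocket proteins differed little between the groups. RB1 (ENSG00000139687, chromosome 13, 48303744 to 48599436, plus strand), the retinoblastoma protein, was at 70.1, 71.0 and 70.4 TPM against 64.1, 64.0 and 65.3 TPM. The groups lay apart but the difference was small (log2 fold change 0.13, 95% interval 0.01 to 0.25, limma adjusted p 0.0732). It passed under 5 other settings, FPKM, the 3 other scalings and coverage, with log2 fold changes of 0.12 to 0.21 and adjusted p-values of 0.0109 to 0.0475. RBL1 (ENSG00000080839, chromosome 20, 36996349 to 37095997, minus strand), an S-phase pocket protein, was at 26.4, 26.7 and 25.7 TPM against 26.9, 27.6 and 28.7 TPM. The 95% interval of its log2 fold change ran from -0.23 to 0.08 around -0.07 (limma adjusted p 0.376), and its sign changed with the scaling. Its promoter, shown above, holds a pair of E2F matches.

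RBL2 (ENSG00000103479, chromosome 16, 53433977 to 53491648, plus strand), the pocket protein of resting cells, was at 36.8, 34.5 and 35.8 TPM against 38.6, 43.8 and 42.9 TPM. Its groups did not overlap, with control replicate 1 nearest to the MEN1 shRNA libraries (log2 fold change -0.22, SE 0.0722, limma adjusted p 0.0346). This call was lost in 10 of 18 alternatives, among them the replicate block (adjusted p 0.0802), the 3 other scalings (0.110 to 0.119) and 4 of the 6 fits that leave out a library (0.0782 to 0.111). Those 4 leave out MEN1 shRNA replicates 2 and 3 and control replicates 2 and 3. The 3′ end of RBL2 overlaps AKTIP on the opposite strand by 610 exonic bases, and AKTIP, a trafficking factor, rose from at most 1.59 TPM to at least 3.20 TPM (log2 fold change 1.05, limma adjusted p 0.00197). Inside the spans of RB1 and RBL1, RCBTB2 and the pseudogene RPS3AP3 shared 0 exonic bases with them and had at most 4.17 and 1.82 TPM. Summed, RB1, RBL1 and RBL2 came to 132 ± 0.745 TPM with the MEN1 shRNA and 134 ± 3.87 TPM in the controls (exact permutation p 0.6). Within this sum, RB1 held 53.2% ± 0.602 against 48.1% ± 1.16 and RBL2 26.9% ± 0.789 against 31.2% ± 1.28.

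**Figure D3:**
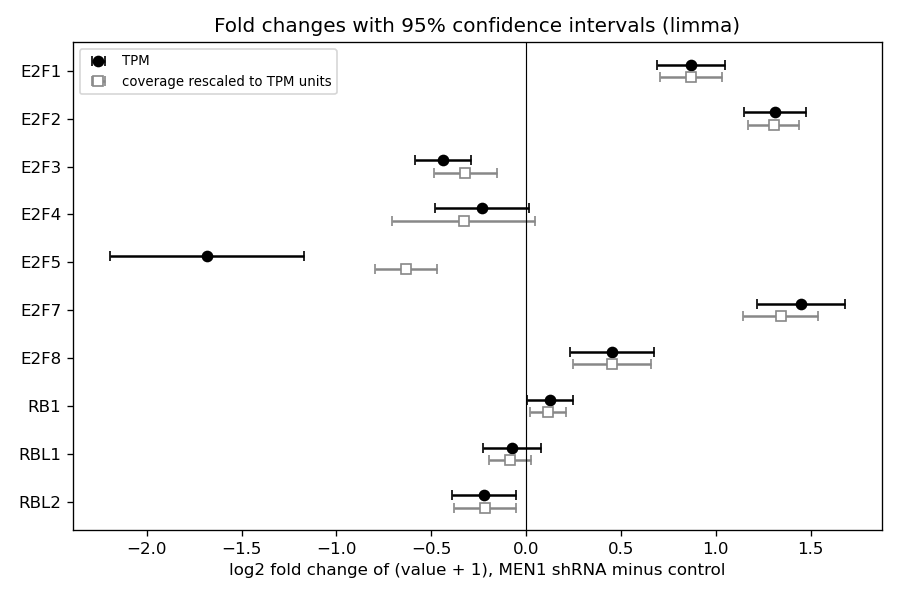
Log2 fold change of each member, MEN1 shRNA minus control, with its 95% confidence interval from limma, on TPM (black) and on coverage rescaled to TPM units (grey). The rises of E2F1, E2F2, E2F7 and E2F8 lie to the right of 0 on both scales. E2F5 is at -1.68 on TPM and -0.63 on coverage, where the pseudocount of 1 compresses the low values.

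The order of levels changed between the groups. In the controls the means in TPM ran from E2F4 (208) through RB1 (64.5), E2F3 (52.3), RBL2 (41.8), E2F1 (32.4), RBL1 (27.7), E2F2 (19.1), E2F8 (18.4) and E2F5 (8.95) to E2F7 (5.58). With the MEN1 shRNA E2F4 and RB1 still led, followed by E2F1, E2F2, E2F3, RBL2, RBL1, E2F8, E2F7 and E2F5. The only neighbours whose libraries overlapped were E2F2 and E2F8 in the controls and RBL1 and E2F8 with the MEN1 shRNA. On rescaled coverage E2F4 led in both groups and E2F1 came second. RB1, at 21.2 in the controls, stood below RBL1, and E2F3 and E2F5 came last. Rescaled coverage was 32.4% to 33.1% of TPM for RB1, 35.3% to 36.0% for RBL2 and 89.3% to 93.3% for RBL1, so its order is not the order in TPM.

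Taken as one pool, the 7 E2F members differed less than their composition. Their summed TPM was 368 ± 13.4 with the MEN1 shRNA and 345 ± 25.8 in the controls (exact permutation p 0.3). E2F4 held 47.8% ± 1.13 of it against 60.2% ± 4.32, E2F1 16.3% ± 0.355 against 9.43% ± 1.15, and E2F2 13.3% ± 0.209 against 5.54% ± 0.210. The activator sum was 0.836 ± 0.0245 times the level of E2F4 with the MEN1 shRNA and 0.507 ± 0.0917 in the controls. On rescaled coverage the pooled sum was 230 ± 4.79 against 187 ± 22.3, with no overlap between the groups (exact permutation p 0.1), so the size of the pool, unlike the shift from E2F4 to E2F1 and E2F2, depended on the measure. Rescaled coverage was 45.4% to 56.5% of TPM for E2F4 and 5.76% to 5.94% for E2F3. It was 89.1% to 93.7% for E2F2 and equalled TPM for E2F1. The coverage sum thus gives E2F3, which fell, and E2F4, which did not pass, less weight than the sum in TPM.

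**Figure D4:**
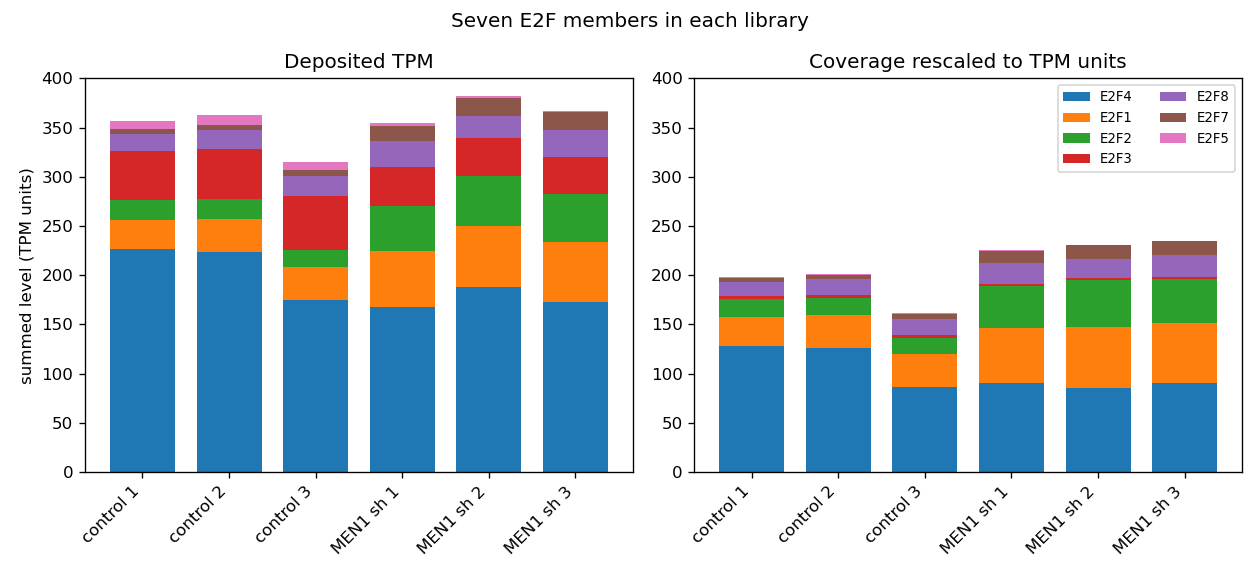
Stacked levels of the 7 E2F members in each library, in deposited TPM (left) and in coverage rescaled to TPM units (right). E2F4 is the largest block in every library, the E2F1 and E2F2 blocks are taller in the MEN1 shRNA libraries, and the E2F3 block all but disappears on coverage.

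The rest of the pathway was described by 5 lists of 93 genes, of which 91 were tested. The first list held E2F partners and the MuvB core, which joins the pocket proteins in the DREAM complex, and also E2F6, FOXM1 and MYBL2. Of its 10 tested genes, 4 rose and 2 fell (median log2 fold change 0.16, against -0.07 over all genes). The 2 that fell were FOXM1 and MYBL2, which are neither DP partners nor MuvB core subunits. The background was 22.1% higher and 31.5% lower. TFDP2, a DP partner, rose from 104 ± 10.7 to 194 ± 5.44 TPM (log2 fold change 0.90, limma adjusted p 9.33e-05). On rescaled coverage TFDP2 was only at 3.65 ± 0.257 in the controls and 5.47 ± 0.570 with the MEN1 shRNA (log2 fold change 0.47, limma adjusted p 0.00763). LIN37, a MuvB subunit, rose by 0.55 on the log2 scale, and TFDP1, the other main partner, by 0.16. FOXM1, which drives G2/M genes, fell from 66.4 ± 2.24 to 41.2 ± 2.85 TPM (log2 fold change -0.68), and MYBL2, which binds MuvB in S phase, fell by 0.26 on the log2 scale. TFDP1 lost its call in 9 of 18 alternatives and MYBL2 in 2. Without MEN1 shRNA replicate 2, 3 genes of this list passed in place of 6. E2F6, a repressor that binds DNA with a DP partner but without pocket proteins, was at 25.9 ± 1.09 against 21.1 ± 3.24 TPM (limma adjusted p 0.0527). Its call changed in 8 of 18 alternatives and on coverage its sign did too (log2 fold change -0.11). E2F6 was chosen here after its values were seen.

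The kinases and inhibitors that act on the pocket proteins moved in both directions. Of 19 tested, 10 rose and 6 fell (median log2 fold change 0.22, against -0.07 over all genes). The share that rose was 52.6%, against 22.1% of all tested genes, and the share that fell was 31.6%, near the 31.5% of all. CCND3, the D cyclin that predominates in erythroid cells, rose from 198 ± 11.1 to 746 ± 79.7 TPM (log2 fold change 1.90, limma adjusted p 1.66e-05). CCND2 fell from 42.4 ± 1.92 to 29.7 ± 0.796 TPM. The E cyclins, both partners of CDK2, diverged, with CCNE2 rising from 22.6 ± 1.10 to 66.5 ± 2.81 TPM and CCNE1 falling from 61.6 ± 2.06 to 42.6 ± 5.58 TPM. CDKN2D, an inhibitor of CDK4 and CDK6, rose from 5.81 ± 0.793 to 21.7 ± 2.98 TPM (log2 fold change 1.73). SKP2, the ubiquitin ligase subunit that removes the inhibitor CDKN1B, fell from 52.8 ± 5.85 to 16.4 ± 5.19 TPM (log2 fold change -1.67). CDKN1A, the p21 inhibitor, had the largest change of the list, from 2.15 ± 0.561 to 16.5 ± 4.07 TPM (log2 fold change 2.46, limma adjusted p 7.57e-05), and was picked out after its values were seen. On rescaled coverage CDKN1A went from 0.494 ± 0.121 to 3.89 ± 0.937, and the log2 fold change of 1.69 is compressed by the pseudocount of 1. The other inhibitors on the list also differed in direction. CDKN1B (log2 fold change 1.04), CDKN2B (1.66) and CDKN2C (0.24) rose, CDKN2A fell (-0.68) and CDKN1C did not pass (-0.03). CDKN2A lost its call in 5 of 18 alternatives and CDKN2C in 4. On coverage the median of the list was 0.05.

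Of 12 corepressors that bind the pocket proteins, 2 rose and 5 fell (median log2 fold change -0.12, against -0.07 over all genes). These are 16.7% and 41.7%, against 22.1% and 31.5% of all tested genes. The histone deacetylase HDAC1 rose from 132 ± 8.41 to 185 ± 16.8 TPM and ARID4B, which recruits SIN3 complexes, from 18.0 ± 1.53 to 23.9 ± 1.13 TPM. RBBP7 fell from 189 ± 9.22 to 110 ± 19.6 TPM, SIN3B, a scaffold of deacetylase complexes, from 35.8 ± 3.21 to 23.4 ± 1.49 TPM, and HDAC3 from 69.0 ± 4.05 to 49.2 ± 5.94 TPM.

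Classical E2F targets of S phase did not move one way. Of 28 tested, 9 rose and 6 fell (32.1% and 21.4%, against 22.1% and 31.5% of all tested genes), with a median log2 fold change of -0.05 close to the -0.07 of all genes. The nucleotide synthesis gene RRM2 (241 ± 18.7 to 407 ± 15.2 TPM) rose, as did the licensing factor CDT1 (118 ± 5.54 to 157 ± 4.45 TPM). The replication helicase subunit GINS1 fell from 38.6 ± 0.868 to 14.9 ± 2.69 TPM (log2 fold change -1.33, limma adjusted p 0.000102). The DNA repair gene UNG fell from 71.9 ± 3.05 to 30.3 ± 5.16 TPM, and the clamp loader subunit RFC4 from 113 ± 0.943 to 79.7 ± 8.62 TPM. The largest rise on the list was 0.76 on the log2 scale. The sign of its median changed with the scaling, from -0.09 to 0.04 over the alternatives.

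Of 22 G2/M genes bound by MuvB complexes, 12 rose and 2 fell (54.5% and 9.1%, against 22.1% and 31.5% of all tested genes; median log2 fold change 0.22, against -0.07). NUSAP1, a spindle protein, rose from 182 ± 6.36 to 337 ± 16.8 TPM, the kinesin KIF11 from 84.0 ± 3.50 to 126 ± 4.37 TPM, and HMMR from 98.9 ± 1.94 to 144 ± 5.34 TPM. KIF23, a kinesin of cytokinesis, fell from 72.5 ± 4.71 to 41.1 ± 2.46 TPM and the checkpoint kinase TTK from 99.5 ± 8.64 to 80.2 ± 1.11 TPM. These lists share the libraries and the fit of the members and are given as counts only.

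**Figure D5:**
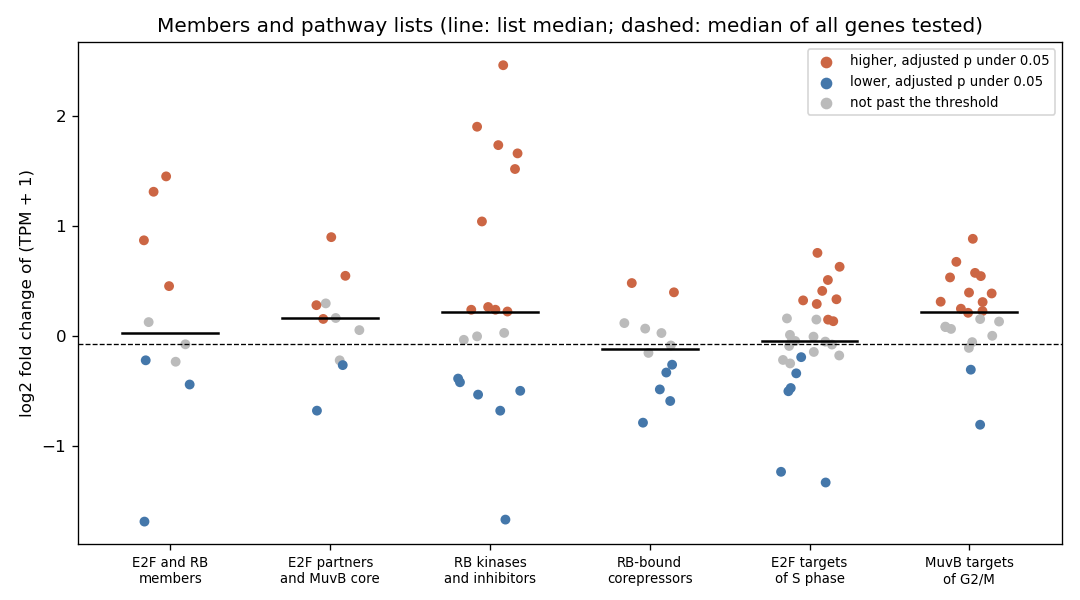
Log2 fold change of each tested gene of the family and of 5 pathway lists, coloured by its call, with the list median as a line and the median of all genes tested (-0.07) dashed. The S-phase target list is centred near the dashed line, whereas the G2/M list has 12 genes above and 2 below among its calls.

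The genes whose profile over the 6 libraries lay nearest to the extremes of the family were found by Euclidean distance of centred log2(TPM + 1) among 9924 named genes with a mean TPM of 5 or more. Nearest to E2F7 were FZD5 (distance 0.0936) and FHDC1 (0.117), with log2 fold changes of 1.43 and 1.41. Nearest to E2F5 were SKP2 (0.141), ZNF395 (0.223) and NELFCD (0.232), with -1.67, -1.77 and -1.61. With 3 libraries in each of 2 groups, such distances reflect mostly the difference between groups.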

How the data were processed

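Poly(A)-selected RNA of HUDEP-2 cells was sequenced with a strand-specific kit, per the labels' protocols, in 6 libraries, grouped by title into 3 MEN1 and 3 control shRNA replicates. The submitters' processing notes name FastQC, Trimmomatic, STAR 2.7.1a, Picard 2.20.4, StringTie 2.0.4 and build hg38. Neither annotation nor strand setting is given in the sources used here. Each deposited table gives coverage, FPKM and TPM for 62754 genes. Deposited TPM sums to 1000000 per library, deposited FPKM is scaled for gene length and fragments sequenced, and deposited coverage is the mean read depth per base, unscaled. In control replicate 2, 3 residues below 0 were set to 0. Of 58261 gene identifiers found in GENCODE v29 (GRCh38), 99.9% overlapped their position there.

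The 14294 genes that reached 1 TPM in 3 or more libraries were fitted with limma 3.58.1 in R 4.3.3 on log2(TPM + 1), with lmFit and eBayes with a mean-variance trend, 2-sided, adjusted by Benjamini-Hochberg over all genes at 0.05. No count model was used, since the tables hold no read counts. Aligned bases and the coverage rescaling came from the median ratio of coverage to FPKM in genes with 1 transcript in GENCODE v29 and a TPM of 1 or more (94.9% to 95.4% of them within 0.1% of it). Sums and shares were compared with 2-sided exact permutation tests. Promoters came from RefSeq. Python 3.11.15 with pandas 2.3.3 and matplotlib 3.10.9 served for tables and figures.

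All 10 members and MEN1 are named. From each pathway list the rule names up to 3 higher and 3 lower genes with the lowest adjusted p, and it also names overlapping genes whose mean reaches 1 TPM in either group and the 3 nearest profiles of the highest and lowest member. E2F6, CDKN1A, CDKN1B, CDKN1C, CDKN2A, CDKN2B, CDKN2C and the marker genes stand outside the rule. Some genes that the rule names are not reported here. Members and lists were chosen with earlier results of these data known. Alternatives covered pseudocount, filter, unit, scaling, variance model, array weights, replicate block and leaving out each library.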

Additional observations from a re-analysis of the deposited data

How the results depend on the processing

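Of 180 comparisons of a member's fold change with an alternative, 162 kept direction and side of the threshold. E2F1, E2F2, E2F3, E2F5, E2F7 and E2F8 kept theirs in all 18 alternatives, at 0.81 to 0.96, 1.28 to 1.42, -0.46 to -0.32, -2.07 to -0.63, 1.33 to 1.59 and 0.40 to 0.58. The setting on gene-level coverage was chosen after the data were seen.

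RB1 became significant with FPKM (0.16), median-of-ratios scaling (0.21), TPM rescaled without globin and mitochondrial genes (0.20), quantile normalization (0.20) and coverage (0.12). RBL2 lost significance with no filter, without trend and with the replicate block (-0.22 in each), and with median-of-ratios scaling (-0.13), globin and mitochondrial rescaling (-0.15) and quantile normalization (-0.14). RBL1 reversed (0.011 under median-of-ratios, 0.0373 under quantile normalization). These scalings move the median of all genes from -0.07 to between -0.01 and 0.01, and with median-of-ratios 49.5% of calls were higher in place of 41.2%.

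The log2 ratio of the E2F1, E2F2 and E2F3 sums moved from 0.50 to 0.59 with median-of-ratios, 0.57 with globin and mitochondrial rescaling and 1.01 with coverage, which lowers E2F3. That of E2F7 and E2F8 moved from 0.83 to 0.92 with median-of-ratios. That of the pocket proteins turned from -0.02 to 0.0166 with FPKM, 0.0726 with median-of-ratios and 0.0527 with globin and mitochondrial rescaling. Median-of-ratios, globin and mitochondrial rescaling and FPKM each apply a common factor to all members of a library. Every role group therefore shifted upward under them. The log2 ratio of E2F4 and E2F5 likewise went from -0.28 to -0.20, -0.22 and -0.25 in that order. These moves are changes of scale that the members of a library share.

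Fits that omit 1 library ranged from 0.81 to 0.91 for E2F1, -0.35 to -0.17 for E2F4, -1.94 to -1.54 for E2F5 and -0.27 to -0.19 for RBL2. They called 3 to 5 genes on the list of E2F partners and MuvB core, and 6577 to 7542 genes in all. Under the replicate block, 7012 genes passed in place of 7657, 6 members in place of 7, and only RBL2 among the members changed its call. Deviations from the group means correlated at 0.02, -0.03 and -0.01 between same-numbered libraries. With 3 libraries in each group, these values cannot decide whether same-numbered libraries share a culture or a day. Depth limits E2F5, at no more than 4.51 reads per base.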
